A study of Homo sapiens with 4 samples.

Results

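Genes that burn fatty acids in mitochondria and peroxisomes, and the PEX genes that build peroxisomes, were examined in Jurkat cells, an established human T cell leukemia line. The members were all genes of the deposited table whose symbol belongs to the PEX, ACAD, ACOX, ACOT, ACSL, HADH, CPT1, CPT2, ECH or ECI families or is ETFA, ETFB, ETFDH or CAT. This gave 60 genes on 63 transcript rows, of 15230 gene symbols on 16328 rows in all. Cells had received a lentiviral vector (pGreenPuro) with hairpins against SLEAR, in 3 libraries labelled SLEAR shRNA with the numbers 1, 2 and 3, called libraries 1, 2 and 3 below, or a control hairpin, in 1 library labelled Control. All libraries came from the same line, held polyadenylated RNA and were made by MAPS, which reads the ends of transcripts next to the poly(A) tail. Whether the numbers mark different hairpins or repeats of 1, and whether cultures were separate, is not in the labels, so p-values here rest on a spread between libraries that may be technical. Control has no replicate and carries no SD. The SLEAR transcript is not analysed here, and the knockdown was therefore not checked.

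In mitochondria, a long-chain fatty acid is first activated by an acyl-CoA synthetase, handed to carnitine by CPT1 and back to coenzyme A by CPT2. Each turn of beta-oxidation then uses an acyl-CoA dehydrogenase, a hydratase, a second dehydrogenase and a thiolase, and the dehydrogenase passes its electrons to the flavoprotein ETF and on to the respiratory chain. Peroxisomes shorten very long and branched chains with oxidases that make hydrogen peroxide, which catalase removes, and they import all their enzymes through receptors and docking proteins named PEX. In T cells, fatty acid oxidation is best known as a fuel of memory and regulatory cells.

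HADHA and HADHB encode the alpha and beta subunits of the mitochondrial trifunctional protein. Their means differed from Control in opposite directions, but the log2 difference of HADHB, -0.49 ± 0.55 (SE), was smaller than its SE. The pair was singled out after its values were seen. HADHA and HADHB start back to back on chromosome 2. Their annotated starts lie 307 bases apart, so 1 stretch of DNA serves as the promoter window of both. The windows, 250 bases before to 50 bases after each start (RefSeq, GRCh38.p14), are shown to let this shared stretch be seen, and capitals mark the 194 bases that lie in both windows. HADHA is at chr2:26244583-26244882 on the minus strand and HADHB at chr2:26244689-26244988 on the plus strand, each printed 5′ to 3′ on its own strand.
HADHA: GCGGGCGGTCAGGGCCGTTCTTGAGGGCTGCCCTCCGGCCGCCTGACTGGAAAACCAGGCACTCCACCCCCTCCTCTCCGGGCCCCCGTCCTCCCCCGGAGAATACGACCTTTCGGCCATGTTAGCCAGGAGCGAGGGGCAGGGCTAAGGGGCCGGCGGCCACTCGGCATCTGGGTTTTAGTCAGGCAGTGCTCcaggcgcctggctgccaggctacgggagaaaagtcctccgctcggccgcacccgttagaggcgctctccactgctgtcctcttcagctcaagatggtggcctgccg
HADHB: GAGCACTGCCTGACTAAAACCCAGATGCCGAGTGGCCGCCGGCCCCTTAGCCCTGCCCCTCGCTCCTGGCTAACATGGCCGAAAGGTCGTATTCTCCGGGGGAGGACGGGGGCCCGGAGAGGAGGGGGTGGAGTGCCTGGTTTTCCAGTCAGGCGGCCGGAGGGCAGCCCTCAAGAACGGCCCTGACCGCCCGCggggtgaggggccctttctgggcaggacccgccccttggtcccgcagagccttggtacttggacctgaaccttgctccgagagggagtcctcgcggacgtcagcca

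Neither window held the nuclear receptor half-site AGGTCA, its direct repeat with 1 base between (the core of a PPAR response element, which holds the half-site), the ETS core CCGGAAG or the box CCAAT, searched on both strands. Of the 60 member genes, 49 had a window in the table, and the first window listed for each gene was used. The direct repeat was in 0 of 49 member windows, against 0.022% of all 27305 windows. The half-site was in 8.16% of member windows against 13.9% of all, the ETS core in 20.4% against 10.7%, and CCAAT in 28.6% against 35.7%. These matches describe letters in a window and were not tested.

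Values were deposited as RPM, reads scaled to the size of the library, and were not divided by transcript length. Estimated depth was 4814166 to 7524254 reads in the SLEAR shRNA libraries and 8384889 reads in Control, so that 1 read was worth about 0.119 to 0.208 RPM. By counting alone, a value of 0 allows up to 3 reads, or 0.358 to 0.623 RPM. Library 3 stood apart: over all tested rows its log2 values correlated across genes with the other libraries at 0.878 to 0.886, against 0.962 to 0.977 among the other 3 libraries, and 6941 of 16328 rows were at 0 in it, against 2314 to 2984 in the others. Among the members, 25 of 63 rows were at 0 in library 3, against 5 in library 1, 5 in library 2 and 7 in Control, so results are given with and without library 3.

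Of the 63 member rows, 52 rows of 51 genes had at least 1 RPM in at least 1 library and were tested, 28 of them met the rule for naming, and 3 rows were at 0 in every library (PEX3, PEX13 and ACOT12). The question is which of them differ when SLEAR is targeted. By limma-trend on log2(RPM + 1) over all 12350 rows tested, 0 member rows were higher and 0 lower at a Benjamini-Hochberg adjusted p under 0.05, against 0% and 0% of all rows. Unadjusted p-values under 0.05 were found for 3 higher member rows (HADHA, PEX14 and ACADS) and 0 lower ones, which is 5.77% and 0%, against 0.745% and 1.94% of all rows. Limma-voom on estimated reads also called 0 and 0. Since no row of any kind passed with all libraries, missing that threshold says nothing on whether a gene was stable. When library 3 was left out and the rows were limited to those whose log2(RPM + 1) averaged 4 or more, 27 member rows remained, of which 5 were higher (18.5%) and 1 lower (3.70%). Over all 4851 rows of that fit the shares were 7.11% higher and 7.26% lower. The 5 higher ones were PEX14, HADHA, ACADS, ECH1 and ACOT7, and the 1 lower was PEX5. With the average taken over the 3 libraries of the fit, a choice made after seeing the data, 4 of 28 member rows were higher (14.3%) and 0 lower (0%), against 7.04% and 7.02% of all 4932 rows, since HADHA came under the limit and PEX5 missed the threshold. PEX14 and HADHA were under the limit in Control, at less than 15 RPM, and passed it through the SLEAR shRNA libraries where they are high, so these counts are a description. That fit has 1 residual degree of freedom per row, with the spread pooled completely over rows, and without the limit on low values leaving out library 3 called 0 member rows.

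In all, 10 of 52 member rows lay above Control in all SLEAR shRNA libraries (19.2%), against 17.8% of all tested rows, and 10 lay below it in all 3 (19.2%), against 28.6%. The higher share was thus near that of all rows, and 3 of the 10 lower rows (CPT2, ACOT9 and PEX16) were at 0 in library 3, where 25 of 63 member rows were at 0. Without library 3, 26 rows lay above Control (50%) and 17 below (32.7%), against 35.2% and 41% of all rows. The 26 hold 2 rows of PEX11G with identical values, and both ACOT1 and ACOT2, whose transcript ends share most of their sequence. Some of the 26 were near 0 in Control, such as PEX7 at 0.119 RPM and ECI1 at 0.238 RPM. Among the 27 rows past that limit on low values, 10 lay above Control in all 3 libraries and 4 below, which is 37.0% and 14.8%, against 25% and 25.6% of all such rows. Without library 3 these were 16 above (59.3%) and 7 below (25.9%), against 40.9% and 39.9%. All these counts share the same Control library. The median log2 difference from Control over the 52 rows was 0.12, 0.11 and -0.29 in libraries 1, 2 and 3, against -0.02, -0.04 and -0.23 over all tested rows. Over the 27 rows past the limit it was 0.16, 0.10 and 0.17, against 0.02, -0.01 and -0.03 over all such rows. The sign in library 3 thus depended on the low rows.

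The label of a T cell line was checked on 15 marker genes, of which 12 were found, on 14 rows. CD3D, a chain of the T cell receptor complex, was at 1590.0, 1679 and 1966 RPM with SLEAR shRNA, against 1579.9 RPM in Control, and LCK, the kinase of that receptor, at 925, 884 and 1037 RPM with SLEAR shRNA, against 753 RPM in Control. CD3E, CD247, CD2, LAT, CD5 and ZAP70 were also above 15 RPM in every library. CD3G, another chain of the complex, was at or under 0.238 RPM, CD7 at 8.51, 8.90 and 16.2 RPM with SLEAR shRNA, against 2.86 RPM in Control, the costimulatory receptor CD28 at 1.28, 2.92 and 0 RPM with SLEAR shRNA, against 7.87 RPM in Control, and the 3 rows of PTPRC, the phosphatase CD45, at most at 6.23 RPM. TRAC, TRBC1 and TRBC2 are not analysed here. The list summed to 4489, 4393 and 4470.2 RPM with SLEAR shRNA, against 4001 RPM in Control. Of its 12 tested rows 4 lay above Control in all 3 libraries and 1 below, which is 33.3% and 8.33%, against 17.8% and 28.6% of all tested rows. By limma 0 passed with all libraries, and 2 of 8 were called higher without library 3 (25%, against 7.11% of all rows). These were CD5, at 65.8, 61.5 and 33.9 RPM with SLEAR shRNA, against 39.5 RPM in Control (limma adjusted p = 0.0116), and LAT. LAT, an adaptor of receptor signalling, was at 206, 193 and 118 RPM with SLEAR shRNA, against 140.5 RPM in Control (limma adjusted p = 0.0165). For both, library 3 lay below Control. The part of these markers in the members' values was not tested. Of the markers of other cell types, ITGAM, S100A9 and KRT18 were at 0 in all 4 libraries, while others were detected. In any 1 library the myeloid markers found summed to at most 1.91 RPM and the erythroid ones to 1.13 RPM. Adipocyte markers reached 0.532 RPM, and those of fibroblasts or adherent cells 3.72 RPM. The hepatocyte marker APOA1 was at 0, 0.266 and 6.65 RPM with SLEAR shRNA, against 0 RPM in Control. The 3 B cell markers found summed to 22.0, 19.7 and 23.1 RPM with SLEAR shRNA, against 12.05 RPM in Control, nearly all of it CD79A.

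**Figure D1:**
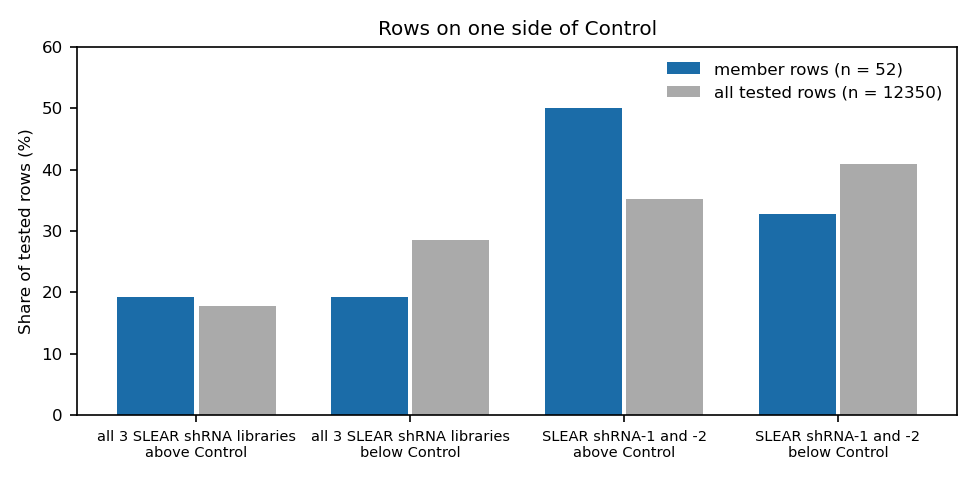
Share of tested rows, in percent, that lie above or below Control in all 3 SLEAR shRNA libraries or in libraries 1 and 2, for the member rows (blue) and all tested rows (grey). With all 3 libraries the share above Control is 19.2% for members and 17.8% for all rows, and the share below is 19.2% and 28.6%.

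Among import receptors and docking proteins, PEX14 and PEX5 went opposite ways in libraries 1 and 2. PEX14, the docking protein that receives loaded receptors at the peroxisomal membrane, was at 29.4, 27.6 and 18.3 RPM in SLEAR shRNA libraries 1, 2 and 3, against 8.47 RPM in Control, which is about 207, 208 and 88 reads against 71 reads. Every SLEAR shRNA library lay above Control, and library 3 lay nearest to it. The log2 difference was 1.43 ± 0.46 (SE) with all libraries (limma adjusted p = 0.993). In the fit without library 3 PEX14 was 3.12-fold higher on the log2(RPM + 1) scale and passed the threshold. PEX14 was under the limit on low values in Control and passed it through the SLEAR shRNA libraries where it is high. Its call is therefore only a description. PEX5, the soluble receptor for most matrix enzymes, was at 44.7, 42.4 and 74.8 RPM in SLEAR shRNA libraries 1, 2 and 3, against 64.8 RPM in Control. Libraries 1 and 2 lay below Control and library 3 above it, so the groups overlap. Without library 3 PEX5 was 1.48-fold lower (limma adjusted p = 0.0477), a call that was lost with the limit on low values taken over the 3 libraries of the fit (adjusted p = 0.0523), and with all libraries its log2 difference was -0.31 ± 0.41 (SE). The ratio of PEX14 to PEX5 was 0.657, 0.652 and 0.244 in libraries 1, 2 and 3, against 0.131 in Control. Control was the lowest of the 4 libraries, and with 3 against 1 the exact two-sided permutation p of 0.25 is the smallest this design allows. A second, low row of PEX5 had at most 0.532 RPM. PEX7, the receptor for a second class of enzymes, was at 1.70, 1.46 and 0 RPM with SLEAR shRNA, against 0.119 RPM in Control, and the PEX5 relative PEX5L had at most 1.06 RPM.

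The machinery that recycles the receptors showed no shared direction. PEX10, a subunit of the ubiquitin ligase that marks PEX5 for export, was at 21.00, 13.7 and 25.8 RPM in SLEAR shRNA libraries 1, 2 and 3, against 18.96 RPM in Control. Control lay within the range of the SLEAR shRNA libraries. PEX2, another subunit of the ligase, had at most 2.66 RPM. PEX26, the membrane anchor of the export ATPases, was at 38.02, 48.6 and 54.2 RPM in SLEAR shRNA libraries 1, 2 and 3, against 38.5 RPM in Control, so library 1 matched Control to within 1 RPM and the others were higher. PEX6, an ATPase of that complex, was at 19.2, 18.2 and 6.02 RPM in SLEAR shRNA libraries 1, 2 and 3, against 18.6 RPM in Control. Of the 3, library 3 alone differed from Control by more than 1 RPM, on the low side. None of these differences passed the test with or without library 3.

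PEX11A, of the family that elongates peroxisomes before they divide, was at 7.52, 11.4 and 1.87 RPM with SLEAR shRNA, against 10.5 RPM in Control, with Control inside the range, and PEX11G, on 2 rows of identical values, had at most 1.53 RPM. PEX19, which escorts new membrane proteins to the peroxisome, stood on the low side at 3.69, 5.45 and 5.61 RPM in SLEAR shRNA libraries 1, 2 and 3, against 13.95 RPM in Control, chosen here after its values were seen. None of the 3 reached Control, at about 26, 41 and 27 reads against 117 reads, and the log2 difference was -1.35 ± 0.66 (SE) (limma adjusted p = 0.993). Its partner PEX16 was near the floor at 0.284, 0.532 and 0 RPM with SLEAR shRNA, against 1.31 RPM in Control, and PEX3, their membrane receptor, was at 0 throughout.

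**Figure D2:**
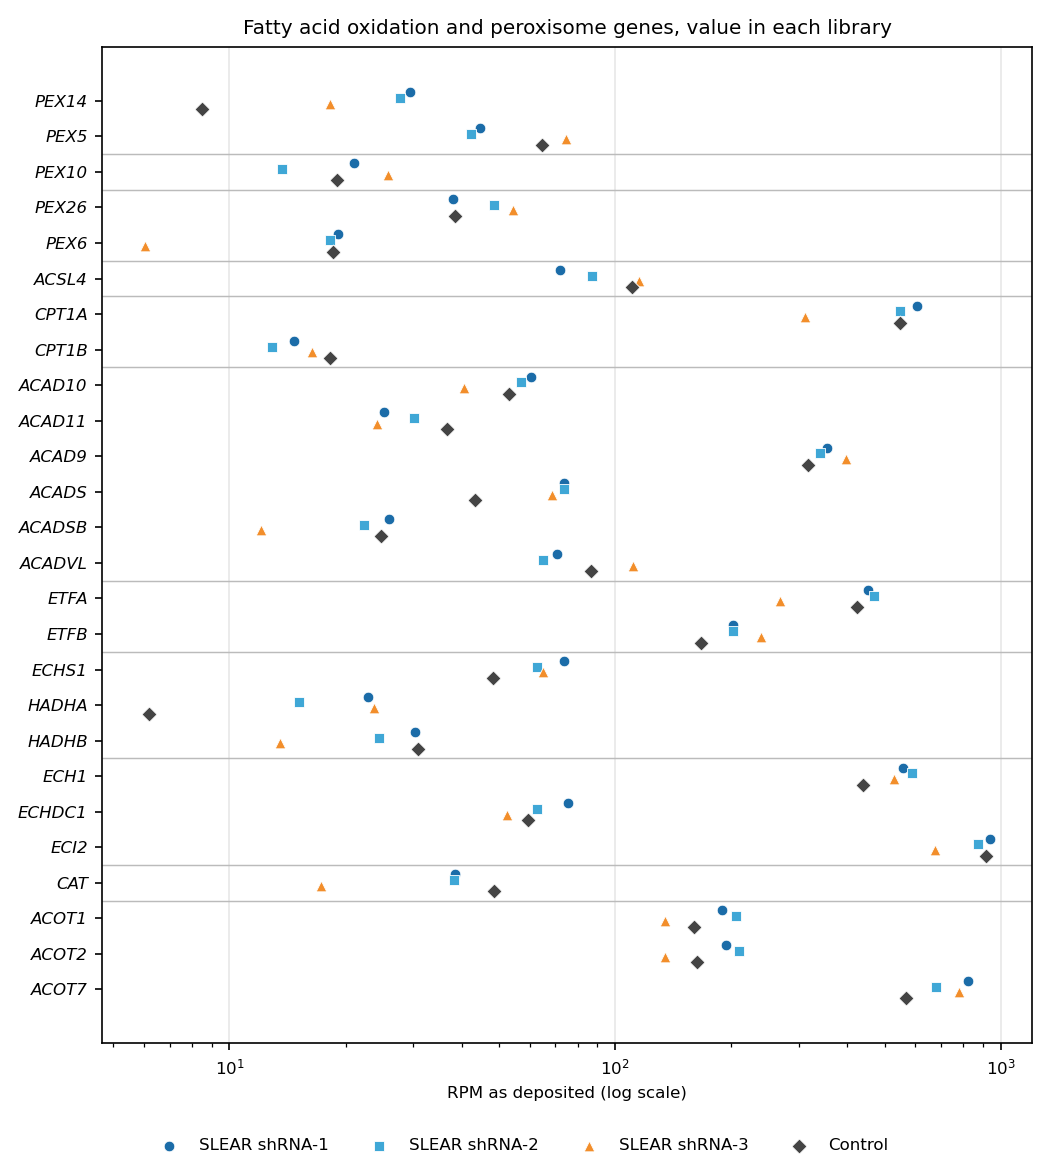
RPM as deposited on a log axis for 26 member rows that met the rule for naming, 1 point per library, set apart slightly in height, with grey lines between functional groups. PEX14, at 18.3 to 29.4 RPM against 8.47 RPM, and HADHA, at 15.2 to 23.7 RPM against 6.20 RPM, lie furthest above Control (dark diamonds). ACADS, ECHS1, ECH1, ACOT7, ETFB and ACAD9 also have every SLEAR shRNA point above Control. CAT, ACAD11, CPT1B and HADHB have every point below it, and in the other rows Control lies among the SLEAR shRNA points.

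Among the genes that activate fatty acids and carry them into mitochondria, 0 of 8 tested rows lay above Control in all 3 libraries (0%) and 3 lay below (37.5%: CPT1B, CPT2 and ACSL1), against 17.8% and 28.6% of all tested rows. CPT1A, which makes acylcarnitine at the outer membrane and is the regulated step of the pathway, was at 606, 548 and 311 RPM in SLEAR shRNA libraries 1, 2 and 3, against 548 RPM in Control. Libraries 1 and 2 lay at or above Control and library 3 below, and the log2 difference was -0.22 with all libraries and 0.07 without library 3. CPT1B, the muscle form, was at 14.7, 12.9 and 16.3 RPM in SLEAR shRNA libraries 1, 2 and 3, against 18.3 RPM in Control. All 3 libraries were lower, on a row it shares with the readthrough transcript CHKB-CPT1B. CPT2, which reverses the transfer on the inner side, was low at 0.709, 1.86 and 0 RPM with SLEAR shRNA, against 4.65 RPM in Control, or about 5, 14 and 0 reads against 39 reads, with a log2 difference of -1.74 ± 0.83 (SE) that did not pass. The mainly neuronal CPT1C had at most 1.56 RPM. Among the synthetases that activate fatty acids, ACSL4, which prefers polyunsaturated chains, was at 71.9, 86.9 and 115 RPM in SLEAR shRNA libraries 1, 2 and 3, against 110.4 RPM in Control. Libraries 1 and 2 lay below Control and library 3 just above (limma adjusted p = 0.0567 without library 3). ACSL1 was at 8.23, 6.65 and 6.02 RPM in SLEAR shRNA libraries 1, 2 and 3, against 15.1 RPM in Control, below Control in each library, with a log2 difference of -1.03 ± 0.58 (SE) that did not pass. ACSL5, ACSL6 and ACSL3 had at most 2.49 RPM.

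Of the 8 acyl-CoA dehydrogenase genes, all tested, 2 lay above and 1 below Control in all 3 libraries, which is 25% and 12.5%, against 17.8% and 28.6% of all tested rows. ACADS, which oxidizes short chains, was at 73.9, 73.6 and 68.5 RPM in SLEAR shRNA libraries 1, 2 and 3, against 43.3 RPM in Control. The SLEAR shRNA libraries lay within a narrow band, 72.03 ± 3.02 RPM (SD, n = 3), well clear of Control. The log2 difference was 0.72 ± 0.22 (SE) with all libraries (limma adjusted p = 0.993, unadjusted 0.0261). In the fit without library 3 ACADS was 1.69-fold higher and passed the threshold, but only with the limit on low values. ACADVL, for very long chains, was at 70.8, 64.9 and 112 RPM in SLEAR shRNA libraries 1, 2 and 3, against 86.5 RPM in Control. Here Control lay between libraries 1 and 2 on the low side and library 3 on the high side. ACADM, for medium chains, was at 6.67, 2.92 and 12.05 RPM with SLEAR shRNA, against 5.01 RPM in Control, with Control inside the range.

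ACAD9, which is known mainly as an assembly factor of respiratory complex I, was at 354, 339 and 396 RPM in SLEAR shRNA libraries 1, 2 and 3, against 317 RPM in Control. All libraries exceeded Control, by a log2 difference of 0.19 ± 0.19 (SE) that did not pass. ACAD11 was at 25.1, 30.04 and 24.1 RPM in SLEAR shRNA libraries 1, 2 and 3, against 36.6 RPM in Control. All 3 libraries were lower, on a row it shares with an overlapping transcript, so that the source of the reads is uncertain. Of its relative ACAD10 the values were 60.6, 56.9 and 40.5 RPM with SLEAR shRNA, against 53.2 RPM in Control, with libraries 1 and 2 above and library 3 below Control. ACADSB and ACAD8, which act in the breakdown of branched-chain amino acids, did not pass. ACADSB was at 25.96, 22.3 and 12.05 RPM with SLEAR shRNA, against 24.7 RPM in Control, and ACAD8 at 8.65, 5.71 and 12.7 RPM with SLEAR shRNA, against 8.83 RPM in Control.

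The electron carriers behind these enzymes split. ETFB, the beta subunit of the electron transfer flavoprotein, was at 203, 202 and 239 RPM in SLEAR shRNA libraries 1, 2 and 3, against 167 RPM in Control. Control was the lowest of the 4 libraries, with a log2 difference of 0.35 ± 0.20 (SE). ETFA, the alpha subunit, was at 453, 470.1 and 268 RPM in SLEAR shRNA libraries 1, 2 and 3, against 423 RPM in Control. Libraries 1 and 2 lay above Control and library 3 below it. The ratio of ETFA to ETFB was 2.24, 2.33 and 1.12 in libraries 1, 2 and 3, against 2.53 in Control (exact two-sided permutation p = 0.50). ETFDH, which passes the electrons to ubiquinone, was at 2.70, 6.65 and 3.74 RPM in SLEAR shRNA libraries 1, 2 and 3, against 10.3 RPM in Control, below Control in all 3 libraries and unevenly so, with a log2 difference of -1.14 ± 0.78 (SE) that did not pass.

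HADHA was at 22.8, 15.2 and 23.7 RPM in SLEAR shRNA libraries 1, 2 and 3, against 6.20 RPM in Control, which is about 161, 114 and 114 reads against 52 reads. All 3 SLEAR shRNA libraries lay above Control without overlap, at 20.6 ± 4.70 RPM (SD, n = 3). The log2 difference was 1.56 ± 0.49 (SE) with all libraries (limma adjusted p = 0.993, unadjusted 0.0286), and in the fit without library 3 it was 2.72-fold higher (limma adjusted p = 0.00123). That last call does not support a rise: HADHA passed the limit on low values only because library 3, where it is high, counted toward it, and with the limit taken over the 3 libraries of the fit HADHA was not in it. HADHB was at 30.4, 24.5 and 13.5 RPM in SLEAR shRNA libraries 1, 2 and 3, against 30.8 RPM in Control. Control was the highest, with library 1 below it by less than 1 RPM and library 3 the furthest below, and the log2 difference was -0.49 ± 0.55 (SE). The ratio of HADHA to HADHB was 0.752, 0.620 and 1.75 in libraries 1, 2 and 3, against 0.202 in Control. Control had the lowest ratio, and the exact two-sided permutation p of 0.25 is again the smallest possible. The ratio compares libraries, not the amounts of both transcripts, and the pair was singled out after its values were seen.

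ECHS1, the short-chain hydratase of the mitochondrial matrix, was at 73.9, 62.9 and 65.02 RPM in SLEAR shRNA libraries 1, 2 and 3, against 48.3 RPM in Control. The groups did not overlap, with SLEAR shRNA on the high side and a log2 difference of 0.47 ± 0.24 (SE) that did not pass (limma adjusted p = 0.993, and 0.0754 without library 3). HADH, the dehydrogenase for shorter chains, was at 8.80, 11.4 and 14.96 RPM with SLEAR shRNA, against 13.1 RPM in Control, with Control inside the range. The trifunctional alpha subunit and ECHS1 catalyse hydration and were both above Control throughout, while HADHB, which carries the thiolase, was not. None of these rows passed with all libraries, and a difference between the steps was not tested.

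**Figure D3:**
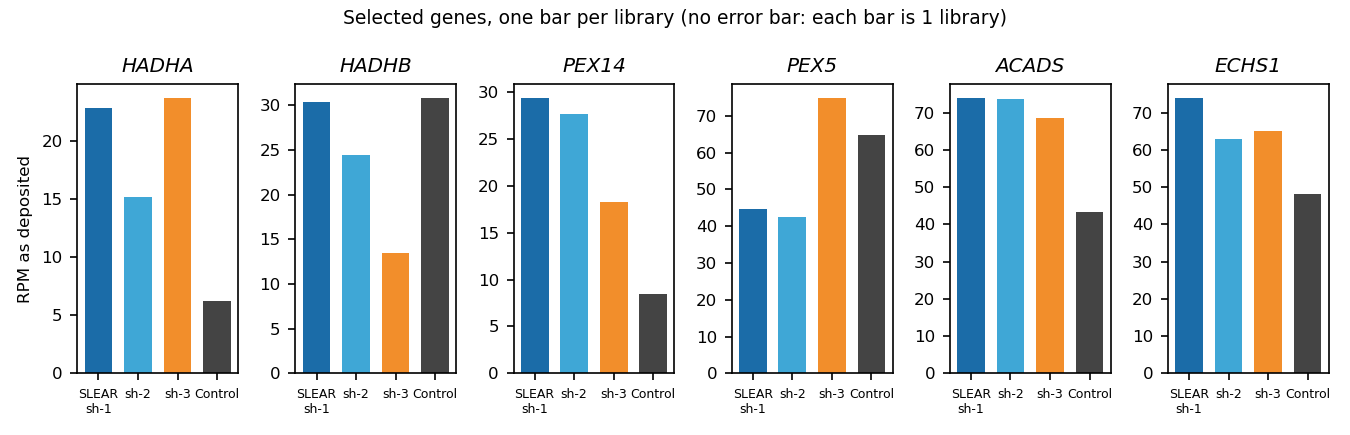
RPM as deposited for HADHA, HADHB, PEX14, PEX5, ACADS and ECHS1, 1 bar per library, from SLEAR shRNA-1 to SLEAR shRNA-3 and then Control, each panel on its own axis from 0. HADHA is at 22.8, 15.2 and 23.7 RPM against 6.20 RPM in Control while HADHB is at 30.4, 24.5 and 13.5 RPM against 30.8 RPM.

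Isomerases deal with the double bonds of unsaturated fatty acids. ECH1, a dienoyl-CoA isomerase of mitochondria and peroxisomes, was at 559, 590.2 and 528 RPM in SLEAR shRNA libraries 1, 2 and 3, against 439 RPM in Control. All 3 libraries lay above Control, with a log2 difference of 0.35 ± 0.18 (SE) that did not pass. In the fit without library 3 ECH1 was 1.31-fold higher and passed the threshold, but only with the limit on low values. ECI2, an enoyl-CoA isomerase, was at 937, 872 and 674 RPM in SLEAR shRNA libraries 1, 2 and 3, against 918 RPM in Control. Libraries 1 and 2 lay close to Control on either side and library 3 below. ECI1, its mitochondrial counterpart, was at 2.13, 2.79 and 0 RPM with SLEAR shRNA, against 0.238 RPM in Control. ECHDC1, which removes a side product of fatty acid synthesis, was at 75.6, 62.9 and 52.6 RPM in SLEAR shRNA libraries 1, 2 and 3, against 59.5 RPM in Control, and library 3 alone was below Control. ECHDC2 and ECHDC3 were not tested, with at most 0.709 RPM.

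In the peroxisome, CAT, the catalase that removes hydrogen peroxide, was at 38.4, 38.3 and 17.2 RPM in SLEAR shRNA libraries 1, 2 and 3, against 48.5 RPM in Control. Each SLEAR shRNA library lay below Control, library 3 by far the most, with a log2 difference of -0.70 ± 0.57 (SE), and -0.33 without library 3 (limma adjusted p = 0.316). ACOX3, which acts on branched chains, was at 5.25, 6.51 and 0 RPM with SLEAR shRNA, against 1.91 RPM in Control, and ACOXL had at most 0.709 RPM.

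Thioesterases release fatty acids from coenzyme A. ACOT7, the main cytosolic one, was at 823, 679 and 779 RPM in SLEAR shRNA libraries 1, 2 and 3, against 568 RPM in Control. All 3 libraries lay above Control, with a log2 difference of 0.41 ± 0.20 (SE) that did not pass with all libraries. In the fit without library 3 ACOT7 was 1.31-fold higher and passed the threshold, but only with the limit on low values. ACOT2, a mitochondrial enzyme, was at 194, 210.0 and 134 RPM in SLEAR shRNA libraries 1, 2 and 3, against 163 RPM in Control. Its cytosolic neighbour ACOT1 was at 189, 206 and 134 RPM in SLEAR shRNA libraries 1, 2 and 3, against 161 RPM in Control. Both rows are uncertain, since 88.2% of the 50-base words in the last 500 bases of ACOT2 also occur in ACOT1 (GENCODE 29 transcripts) and 88.5% the other way round, and they are equal in library 3. Libraries 1 and 2 lay above Control and library 3 below for both. Of the 63 rows, 57 shared no such word with another gene, and the other 4 that did were ETFDH (10.2%), CPT2 (9.31%), ETFB (7.76%) and ACOT9 (2.00%). The peroxisomal ACOT8 was at 19.9, 16.2 and 7.27 RPM with SLEAR shRNA, against 11.4 RPM in Control. ACOT4 and ACOT9 had at most 2.41 RPM, and ACOT11, ACOT12 and ACOT13 were not tested.

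**Figure D4:**
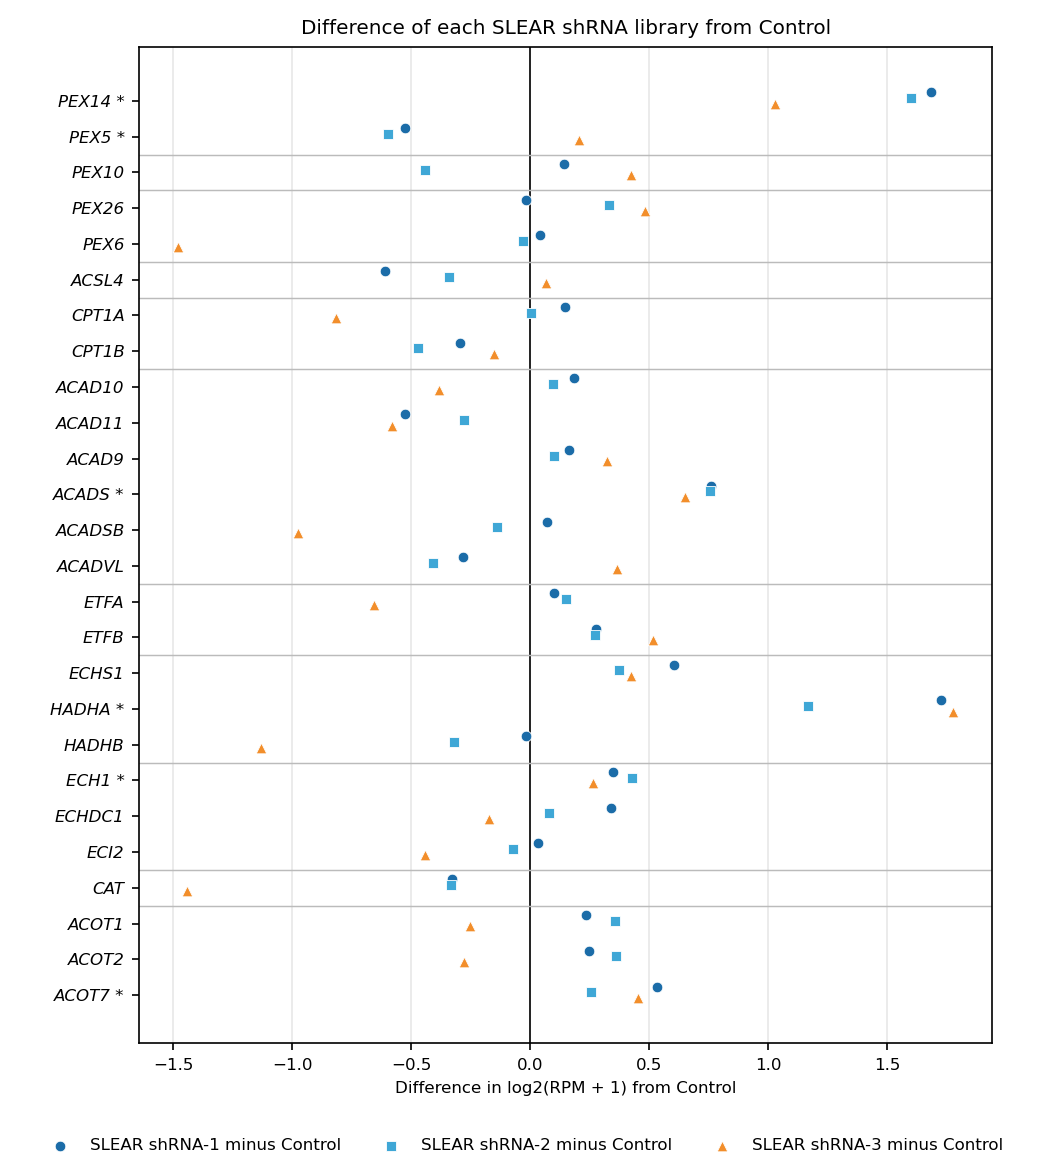
Difference in log2(RPM + 1) of each SLEAR shRNA library from Control for 26 member rows that met the rule for naming, with points set apart slightly in height, and a star after the 6 genes that passed in the fit without library 3, of which HADHA and PEX5 have no call with the limit on low values taken over the libraries of that fit. HADHA and PEX14 lie furthest to the right, and for PEX6, HADHB and CAT the library 3 point lies far left of the other 2.

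Other genes of the pathways were read from 4 lists. Of 30 tested rows of other peroxisomal enzymes and transporters, 0 were higher and 0 lower by limma with all libraries, and likewise 0 and 0 of 12 without library 3. In all 3 libraries 1 of the 30 lay above Control (3.33%) and 11 below (36.7%), against 17.8% and 28.6% of all tested rows, and 12 of the list's 35 rows were at 0 in library 3. The most abundant were PXMP2, a peroxisomal membrane channel, at 308, 311 and 239 RPM with SLEAR shRNA, against 331 RPM in Control, DNM1L, the GTPase that divides mitochondria and peroxisomes, at 169, 193 and 217 RPM with SLEAR shRNA, against 199 RPM in Control, and AGPS, of ether lipid synthesis, at 153, 147 and 168 RPM with SLEAR shRNA, against 164 RPM in Control. PRDX5, a peroxidase, was at 65.97, 78.5 and 123 RPM with SLEAR shRNA, against 76.9 RPM in Control. Control lay within or beside the range of the SLEAR shRNA libraries for DNM1L, AGPS and PRDX5, and above it for PXMP2.

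Of 18 tested rows of other mitochondrial fatty acid oxidation genes, 0 were higher and 0 lower with all libraries. Without library 3, 1 of 7 was called higher (14.3%, against 7.11% of all rows). In all 3 libraries 2 lay above Control (11.1%) and 4 below (22.2%), against 17.8% and 28.6% of all tested rows. In library 3, 6 of the list's 20 rows were at 0. The 1 called higher without library 3 was PCCB, a subunit of propionyl-CoA carboxylase, which takes up the last fragment of odd chains. PCCB was at 196, 214 and 143 RPM with SLEAR shRNA, against 144 RPM in Control (limma adjusted p = 0.0157 without library 3). DECR1, the dienoyl-CoA reductase that works with ECH1 and ECI2 on unsaturated chains, was at 447, 470.1 and 414 RPM with SLEAR shRNA, against 410.5 RPM in Control. ACAA2, a thiolase, was at 129, 115 and 88.5 RPM with SLEAR shRNA, against 107 RPM in Control, and HSD17B10 at 63.98, 86.5 and 62.1 RPM with SLEAR shRNA, against 64.5 RPM in Control.

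Regulators of the pathway gave 0 higher and 0 lower of 19 with all libraries and 0 and 0 of 7 without library 3. In all 3 libraries 1 of the 19 lay above Control (5.26%) and 8 below (42.1%), against 17.8% and 28.6% of all tested rows, and 10 of the list's 20 rows were at 0 in library 3. ESRRA, a nuclear receptor that drives oxidation genes, was at 26.2, 22.7 and 72.9 RPM with SLEAR shRNA, against 24.8 RPM in Control, and its value stood apart in library 3. RXRB was at 45.1, 35.8 and 73.3 RPM with SLEAR shRNA, against 39.2 RPM in Control, with library 3 again the highest. The AMP kinase subunits PRKAG1 and PRKAB1 were at 81.6, 74.6 and 45.5 RPM with SLEAR shRNA, against 71.6 RPM in Control, and at 61.6, 66.98 and 89.9 RPM with SLEAR shRNA, against 73.5 RPM in Control. Fatty acid synthesis, the opposing pathway, gave 0 higher and 0 lower of 20 with all libraries. Of the 20, 8 lay above Control in all 3 libraries (40%) and 4 below (20%), against 17.8% and 28.6% of all tested rows. Without library 3, 1 of 14 was called higher (7.14%), near the 7.11% of all rows. That was ELOVL1, an elongase of very long chains, at 18.3, 20.1 and 44.7 RPM with SLEAR shRNA, against 9.78 RPM in Control. ELOVL1 was under the limit on low values in Control and passed it through the SLEAR shRNA libraries where it is high. Its call is therefore only a description. FASN, the fatty acid synthase, was at 211, 176 and 254 RPM with SLEAR shRNA, against 166 RPM in Control, SCD, the desaturase, at 319, 272 and 158 RPM with SLEAR shRNA, against 299.8 RPM in Control, SREBF2, the sterol-responsive activator, at 663, 553 and 517 RPM with SLEAR shRNA, against 483 RPM in Control, and HACD3 at 192, 197 and 151 RPM with SLEAR shRNA, against 188 RPM in Control.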

How the data were processed

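Polyadenylated RNA of 4 Jurkat libraries was read by MAPS on an Illumina HiSeq, per the labels' protocols. The authors deposited RPM values per transcript row, with Bowtie2, SAMtools, FastQC and the build hg19 named in the submitters' processing notes. The assignment of reads to rows is not given in these sources. Of the values above 0, 96.4% to 96.8% were whole multiples of 1 read within 0.05 reads, but some lay below 1 read, so RPM was not treated as counts. Rows averaging 1 RPM or more with identical values were merged, leaving 16151 of 16328. The value of 1 read was found from the spacing of low values, and no use of molecular identifiers is stated, so the limit of 3 reads covers counting error only. SLEAR shRNA was compared with Control by limma-trend (limma 3.58.1, R 4.3.3) on log2(RPM + 1), which understates the change of low rows, over the rows that reached 1 RPM in any library, adjusted by Benjamini-Hochberg over all of them. The spread came from the 3 SLEAR shRNA libraries, and Control was assumed to vary like them. The code was run on simulated data in which Control varied like the SLEAR shRNA libraries, so that run cannot check this assumption. Named were members with a mean of at least 15 RPM, members past the threshold in either fit, rows of at least 5 RPM of a gene with several rows, and the 4 most abundant genes of each other list with any past the threshold. Some items are not reported here. The members, lists, tests and the fit without SLEAR shRNA-3 were chosen with earlier results of these data known.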

Additional observations from a re-analysis of the deposited data

How the results depend on the processing

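With the 15 alternatives tried (other scaling factors, filters, pseudocounts of 0.1 and 5, limma-voom, array weights, summed rows and libraries left out), the count of member rows past the threshold was 0 higher and 0 lower, except as follows. With no filter on low values 1 row, ACOT11, was called lower, at 0 RPM in all SLEAR shRNA libraries against 0.238 RPM in Control, under the limit of 3 reads. With SLEAR shRNA-3 left out and a mean log2 of 4 or more, 5 rows were higher and 1 lower, and 16 lay above Control. With that mean taken over the remaining libraries, an alternative added after seeing the data, 4 were higher and 0 lower, as HADHA came under the limit and PEX5 missed the threshold, and 16 lay above Control. With the same limit and all libraries, 4 lay below Control. Leaving out each SLEAR shRNA library alone gave 0 to 0 calls in either direction. The median log2 difference was then -0.07 to 0.10, against -0.0021 with all libraries. In these fits 11 to 26 rows lay above and 12 to 17 below Control in every remaining SLEAR shRNA library. With all libraries the counts were 10 and 10, under the stricter demand that all 3 lie on 1 side. The 26 and the 17 came without SLEAR shRNA-3, where 35.2% and 41% of all tested rows lay above and below. Shares over all rows were not computed for the other fits.

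Of 417 alternative values of the 28 rows that met the rule for naming, 384 kept direction and side of the threshold, 10 gained a call (all with SLEAR shRNA-3 left out), and 23 values of 9 rows changed sign with no call on either side. Over the fits that each left out 1 SLEAR shRNA library, these 9 had log2 differences of -0.14 to 0.14 for ACAD10, -0.35 to 0.039 for ACADVL, -0.010 to 0.30 for ACOT1, -0.017 to 0.30 for ACOT2, -0.41 to 0.073 for CPT1A, -0.049 to 0.21 for ECHDC1, -0.28 to 0.12 for ETFA, -0.15 to 0.28 for PEX10 and -0.76 to 0.0051 for PEX6. Without SLEAR shRNA-3 the values were 0.14 for ACAD10, 0.073 for CPT1A, 0.12 for ETFA, -0.15 for PEX10 and 0.0051 for PEX6, with or without a limit on the mean (PEX6 is outside 1 of the limits). Without SLEAR shRNA-1 PEX10 was at -0.010. Array weights gave 0.11 for ACAD10, 0.025 for CPT1A, 0.11 for ETFA and -0.21 for PEX10. The cause was not tested. No paired analysis was possible because Control is 1 library with no number. The trimmed mean of M-values was computed directly, as RPM are not counts. Depth limits the 11 rows that were not tested, all at or under 0.709 RPM, and the 0 values of SLEAR shRNA-3.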
